A study of Mus musculus with 36 samples.

Results

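The genes described here are the cytosolic ribosomal protein genes of the mouse, measured in duodenal organoids. They were chosen by symbol, as the genes named Rpl or Rps followed by a number, Rplp0 to Rplp2 and Rpsa, without names holding "-ps" and without the Rps6k kinases. The rule found 92 of 34197 genes of the deposited table, 55 of the large and 37 of the small subunit by name, and used no measured value. Polyadenylated RNA had been sequenced from 36 samples of 20 to 50 organoids with Sort-seq, a method that primes on the poly(A) tail and tags each molecule with a barcode (UMI). The study entrained Notch-driven oscillations by giving DAPT in pulses and asked for subtle changes of cell type composition; DAPT inhibits gamma-secretase, the protease that frees the signalling fragment of Notch.

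The groups were DAPT pulsed every 90, 130 or 170 min and DMSO, each for 24, 48 or 72 h, with 3 libraries in each of the 12 groups. All organoids came from C57BL/6 mice, which were males or virgin females older than 8 weeks, and were kept in ENR medium on a microfluidic chip. DAPT was at 1.38 µM for the 90 min period, 2 µM for 130 min, and 2.6 µM for 170 min, where 2 µM is named as well. Dose and period thus moved together, except between 130 and 170 min if 2 µM was used for 170 min. Organoids had been passaged 3 days before a 24 h experiment, 2 days before a 48 h one and 1 day before a 72 h one, so duration and time since passage cannot be told apart. The labels state neither whether DMSO was pulsed nor whether replicates were separate cultures; the p-values then measure the spread between these samples, which may be technical. Cells were not enriched for a type, and in such bulk samples fewer cells of a type and less RNA per cell cannot be told apart.

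Ribosomal proteins wrap the ribosomal RNAs of the large and the small subunit, and most of them occur once in each ribosome. Their mRNAs are short, abundant and start with a run of pyrimidines, the TOP tract, through which mTORC1 and the RNA-binding protein Larp1 set their translation. In the intestinal crypt, dividing cells build ribosomes at a high rate. Mammalian genomes carry many processed pseudogenes of these genes, some of them nearly identical to the parent mRNA.

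Library totals lay between 482741 and 1447330 UMI counts (median 958749). All levels below are CPM, counts relative to library sizes that were adjusted with edgeR's TMM. Since each molecule is counted once, counts were not divided by gene length. Markers listed for intestinal cell types were present in every library: summed levels ran from 918 to 2573 CPM for stem cell, from 965 to 5649 CPM for enterocyte and from 2223 to 4259 CPM for goblet cell markers. Paneth markers ran from 1184 to 4162 CPM, tuft markers from 13.4 to 135 CPM and enteroendocrine markers from 5.30 to 1320 CPM. Replicates could differ widely: with 130 min at 48 h the enteroendocrine sums were 5.30, 1320 and 896 CPM. Markers of fibroblasts, immune cells, endothelium and red cells as 1 sum came to at most 23.3 CPM in any library (median 9.43). The library with the lowest total, DMSO at 24 h replicate 1, had the highest summed stem cell (2573 CPM) and cycling (2390 CPM) markers.

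A pair of libraries at 24 h, replicate 3 of the 130 min and replicate 3 of the 170 min period, stood apart in a set of genes that included Rpl26. Xist, the RNA that coats the inactive X chromosome, had 56 counts in the 130 min and 140 counts in the 170 min library, against at most 2 counts in each of the other 34. The Y-linked genes (Ddx3y, Eif2s3y, Kdm5d and Uty) summed to 1 and 6 counts there, but 4 libraries in all had 3 or fewer, so low Y counts alone did not mark the pair. Rpl26, a large-subunit protein beside the exit of the nascent chain, had 48.6 CPM in the 130 min and 62.4 CPM in the 170 min library, against 219 to 391 CPM (median 269) in the other 34. In the same 2 libraries 9 genes that share its sequence summed to 231 and 211 CPM, against 6.08 to 22.4 CPM elsewhere. Of the 82 members that could be tested, Rpl26 alone lay below all 34 other libraries in both, and 0 lay above. The number of members called or under a p of 0.05 in each comparison, and the differences and slopes of named members, are therefore given with both libraries and also without them where these entered.

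Because a 3′ count is assigned by sequence, the coding ends of some members are shown with those of their relatives, as the last 60 coding bases of the reference transcripts (GRCm38, sense strand). Capitals mark the positions at which a pair differs, and a pair without capitals is identical over this stretch.
Rpl26, chromosome 11: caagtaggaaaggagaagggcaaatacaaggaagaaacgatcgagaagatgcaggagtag
Gm15772, chromosome 5: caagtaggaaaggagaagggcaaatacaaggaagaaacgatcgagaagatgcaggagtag
Rps27, chromosome 3: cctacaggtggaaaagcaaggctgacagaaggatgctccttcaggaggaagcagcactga
Rps27rt, chromosome 9: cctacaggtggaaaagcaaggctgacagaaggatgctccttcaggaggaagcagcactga
Rps6, chromosome 4: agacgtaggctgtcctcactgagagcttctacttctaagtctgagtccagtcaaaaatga
Rps6-ps3, chromosome 9: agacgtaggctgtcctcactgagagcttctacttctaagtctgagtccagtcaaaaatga
Rpl9, chromosome 5: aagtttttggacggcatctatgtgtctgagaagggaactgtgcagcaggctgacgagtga
Rpl9-ps6, chromosome 19: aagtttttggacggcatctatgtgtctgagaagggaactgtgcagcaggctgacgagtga
Rps15, chromosome 10: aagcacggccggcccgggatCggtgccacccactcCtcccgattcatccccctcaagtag
Gm5781, chromosome 10: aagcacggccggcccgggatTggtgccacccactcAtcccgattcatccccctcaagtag
Rps13, chromosome 7: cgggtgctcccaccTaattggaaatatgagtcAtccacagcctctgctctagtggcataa
Rps13-ps1, chromosome 8: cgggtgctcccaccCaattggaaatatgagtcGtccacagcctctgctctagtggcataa
Reads that end within an identical stretch cannot be told apart by sequence.

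The table holds counts on both sides of such pairs, and for many members the larger number lay with the relative. Over the last 300 bases of each member's transcript, 29 of 92 members had only 50-base words found in no other gene, and 6 had none that were unique. Genes sharing such words numbered 541 and held 145573 counts, against 608870 counts in the members themselves, and in 22 members the sharing genes held the larger sum. With the whole transcript searched instead, and at least 50 shared words required, 536 genes held 240743 counts, 30 members had the smaller sum, and 7 members, among them Rpl8, Rps27l and the paralogs Rpl10l, Rpl39l and Rpl3l, had no sharing gene. How the authors' counting placed reads that fit both is not given in the sources used here.

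Single pairs show how far this went. Rps27, a zinc-finger protein of the small subunit, had 343 counts over all 36 libraries, against 4911 for its retrogene Rps27rt. Rps6, the small-subunit protein phosphorylated by S6 kinase, had 184 counts, against 2321 for Rps6-ps3. Rpsa, the small-subunit protein also known as the laminin receptor precursor, had 1367 counts, against 24358 for Rpsa-ps10, with which it shares 624 words outside its own unique 3′ end. These 3 members were the lower of each pair, and Rps6 was too low to be tested. Rps15, near the decoding site, had 7278 counts, against 16458 for Gm5781, which differs from it within the stretch shown above. The search over the whole transcript did not count Gm5781 as a sharing gene of Rps15. By that search the sharing genes of Rps15 held 87 counts, of which Rps15-ps2 held 77. The level of a member with such relatives is the level of its own row in the table, not of the protein's mRNA.

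**Figure D1:**
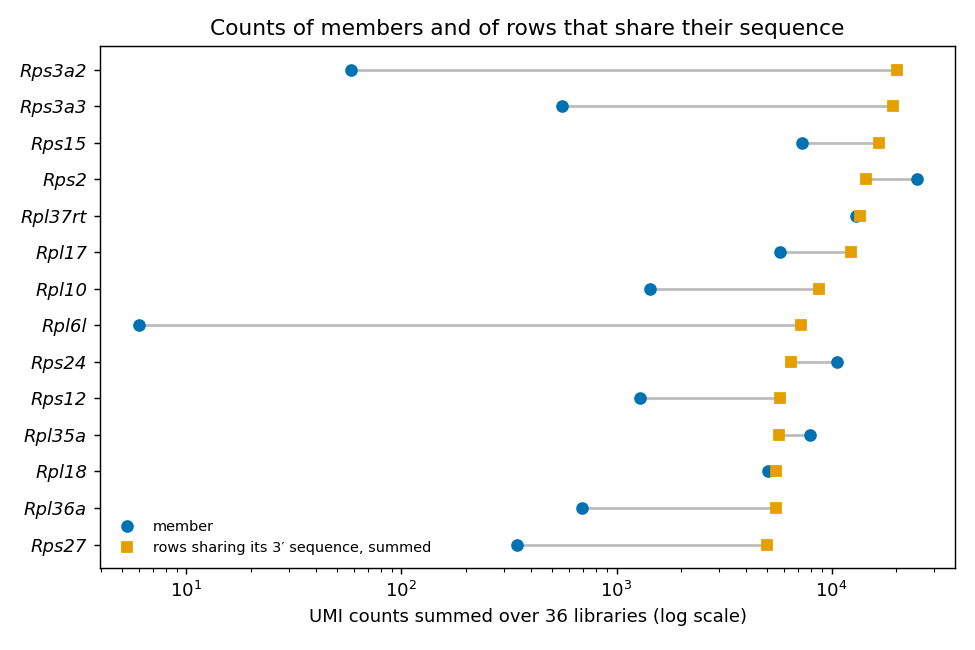
UMI counts summed over 36 libraries (x axis, log scale) for 14 members (circles) and for all genes that share 50-base words with their last 300 bases (squares). Rps27 had 343 counts against 4911 for Rps27rt, its largest relative; for Rps3a2, Rps3a3, Rpl37rt and Rpl6l the largest sharing gene is itself another member.

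In the 2 libraries that stood apart, counts lay with other relatives. Gm15772, identical to Rpl26 over the stretch above, had 134 counts in the 130 min and 290 counts in the 170 min library, against at most 5 counts in the other 34. Rpsa-ps10 had 48.6 and 47.6 CPM there, against 651 to 1068 CPM elsewhere, while Rpsa itself had 40.2 and 51.0 CPM, against 18.5 to 50.5 CPM. Rps13-ps1 had 156 and 82.5 CPM, against at most 2.11 CPM, while Rps13, a small-subunit protein, had 21.8 and 36.9 CPM, against 16.2 to 52.8 CPM. The relatives were thus outside the range of the other 34 libraries in each case, whereas Rps13 was inside it and Rpsa exceeded it by less than 1 CPM in the 170 min library. Over all genes, 27 had at least 10 CPM in both libraries and more than 2 times the level of every other library.

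Levels of the members spanned several orders of magnitude. Rpl23, which when free also binds Mdm2, the regulator of p53, was highest with a mean of 1142 CPM (938 to 1590 over 36 libraries), followed by Rpl4, whose loop lines that tunnel, with 895 CPM; Rps2 with 730 CPM and Rplp1 with 657 CPM were also among the highest. The lowest were Rpl3l, a paralog of heart and skeletal muscle, with 0.0269 CPM, Rpl39l, a paralog of the testis, with 0.0298 CPM, Rps4l with 0.175 CPM, Rpl6l with 0.211 CPM and the testis paralog Rpl10l with 0.586 CPM. In all, 52 members had a mean over 100 CPM and 6 had fewer than 1 count per library. The 10 members left out of the tests for low counts were Rpl10l, Rpl23a, Rpl24, Rpl32l, Rpl39l, Rpl3l, Rpl6l, Rps3a2, Rps4l and Rps6.

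Among proteins with known extra roles, the stalk that recruits elongation factors was high throughout, with 455 CPM for Rplp0 and 232 CPM for Rplp2. Rpl5 and Rpl11, which bind 5S rRNA and, like Rpl23, Mdm2, had 17.5 and 12.5 CPM. Genes sharing their sequence over the whole transcript held more counts: 2174 against 615 for Rpl5 and 6991 against 443 for Rpl11. Of paralog pairs, Rpl22 had 213 CPM and Rpl22l1 107 CPM, whereas Rps27l had 650 CPM, Rps27rt 146 CPM and Rps27 9.73 CPM. Rpl10, which completes the large subunit late in its assembly, had 40.9 CPM, beside 241 CPM in Rpl10-ps3. Rpl3, at the peptidyl transferase centre, had 47.1 CPM, and Rpl39, at the tunnel exit, had 170 CPM. Rpl36a had 19.3 CPM and its paralog Rpl36al had 14.7 CPM. Genes sharing Rpl36a sequence held 5439 counts, against 693 of its own. Rps3, at the mRNA entry, had 359 CPM, Rpl7 had 209 CPM, and Rpl7l1, a paralog that acts in ribosome assembly, had 132 CPM. The rule also took in Rps19bp1, a binding partner of Rps19 and no ribosomal protein, at 72.9 CPM. It missed components of the small subunit such as Fau, made as a fusion to a ubiquitin-like protein, with 74.4 CPM, and Rack1, a scaffold protein, with 582 CPM.

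Spread over the 36 libraries followed the level. Among the 82 tested members the SD of log2 CPM was largest in Rps10 (0.765), Rps27 (0.564), Rpl26 (0.546), Rps27a (0.490) and Rps3a3 (0.474), of which all but Rpl26 had means under 20 CPM. The SD of Rpl26 was 0.150 without both libraries that stood apart. It was smallest in Rps21 (0.105), Rps24 (0.111) and Rps26 (0.127), whose means were 310, 310 and 363 CPM. Rps21 lay between 256 and 381 CPM in every library, whereas Rps10 ran from 0 to 15.9 CPM.

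Together the members took 1.77% of all counts in the median library, with a range of 1.51 to 2.08%. The share averaged 1.73 ± 0.0877% with the 90 min period, 1.74 ± 0.0534% with 130 min, 1.75 ± 0.139% with 170 min and 1.82 ± 0.123% with DMSO (SD, n = 9 libraries each). At 24 h the means were 1.69 ± 0.0796% for 90 min, 1.73 ± 0.0710% for 130 min, 1.72 ± 0.183% for 170 min and 1.86 ± 0.193% for DMSO (SD, n = 3 each). The means were, without both libraries that stood apart, 1.75 ± 0.0539% with 130 min and 1.78 ± 0.114% with 170 min (SD, n = 8 each), and at 24 h 1.75% and 1.82% (n = 2 each). The DMSO libraries at 24 h had 2.08, 1.74 and 1.76%, so that replicate 1 alone set their mean apart, and the other DMSO values lay within the range of the DAPT libraries. By duration the means were 1.75% at 24 h, 1.74% at 48 h and 1.79% at 72 h (SD 0.140, 0.107 and 0.0640, n = 12 each), and 1.78 ± 0.127% at 24 h without those 2 libraries (SD, n = 10). The groups overlapped in every such set. The share has no test, because its members were proposed with results of these data known.

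The highest share belonged to the library with the lowest total and the lowest share to the library with the highest, replicate 3 of 170 min at 24 h. Ordered by total, the 12 lowest libraries had a median share of 1.79%, the 12 middle ones 1.76% and the 12 highest 1.75%, with ranges that overlapped. Leaving out Rps3a2, Rps3a3, Rps19bp1 and members with a paralog or retrogene name (ending in l, l1 or rt) gave 1.62% for the median library. That choice went by name and not by sequence: it dropped Rps27l and kept Rpl26 and Rps27. Adding the genes that share member sequence gave 2.19% (3′ ends) or 2.47% (whole transcripts).

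**Figure D2:**
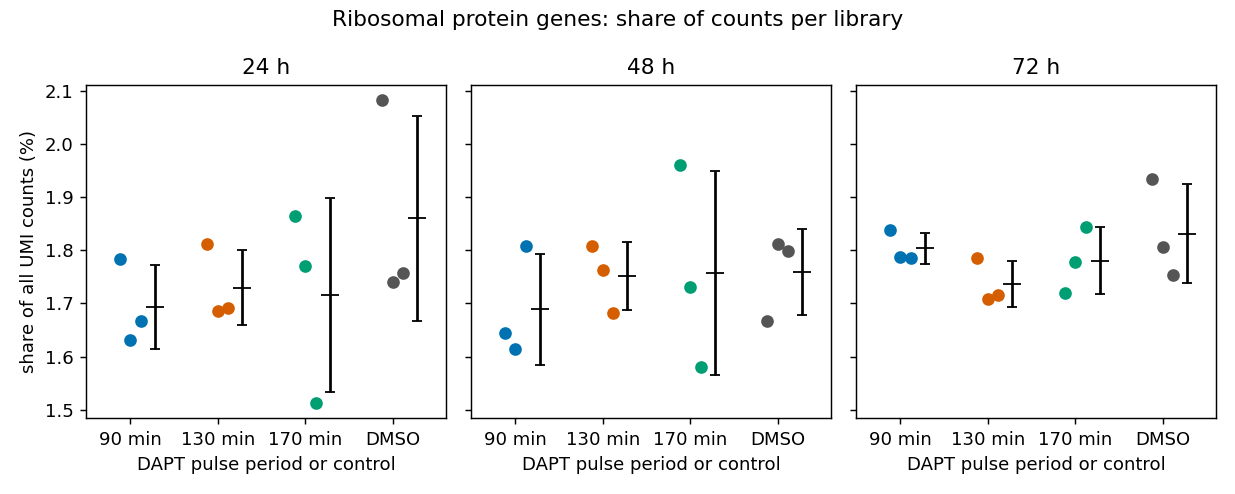
Share of all UMI counts in the 92 members (y axis, %) for each library (points) by DAPT pulse period or DMSO, with 1 panel per duration; bars are mean ± SD of 3 libraries. The highest point, at 2.08%, is DMSO at 24 h replicate 1, and the lowest, at 1.51%, is 170 min at 24 h replicate 3.

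The first comparisons set each pulse period against DMSO, averaged over durations. No member passed an adjusted p of 0.05 (edgeR's quasi-likelihood test, Benjamini-Hochberg over 11462 genes), and 0% of all tested genes did so in each of the 3 comparisons. For the 90 min period 0 of 82 members were called by edgeR and 0 by DESeq2, with 11 and 14 members at an unadjusted p under 0.05. For 130 min 0 were called by either tool, with 3 members under 0.05 by edgeR and 2 by DESeq2, and for 170 min again 0 by either, with 15 and 11. All 11, 3 and 15 members under 0.05 in edgeR had lower values with DAPT. These were 13.4, 3.66 and 18.3% of the tested members, beside 7.92, 5.49 and 8.64% of all tested genes. Members under 0.05 numbered 13, 7 and 6 without both libraries that stood apart. The share of all genes under 0.05 is not given for that fit. The 3 comparisons share their DMSO libraries, so their values are not independent of each other.

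Most members lay slightly below DMSO without passing the test. Mean library totals were 859263 with DMSO, 1058610 with 90 min, 855825 with 130 min and 1093670 with 170 min. At 24 h they were 697589, 1066190, 873466 and 1179370 in the same order. Abundant genes fell as totals rose (below), and the values over all tested genes given here are not matched for level. The median member change was -0.09 on the log2 scale for 90 min, with 59 of 82 members below 0, beside a median of 0.02 over all tested genes, of which 44.9% were below 0. For 130 min it was -0.06 with 65 members below 0, beside -0.00 and 51.3%, and for 170 min -0.08 with 63 members below 0, beside 0.01 and 46.7%. The members below DMSO at all 3 durations numbered 33 for 90 min, 29 for 130 min and 29 for 170 min (40.2, 35.4 and 35.4%), beside 17, 13.7 and 14.3% of all tested genes. A member with at least 100 CPM had a median standard error of 0.0791 in the 90 min comparison and one below 100 CPM of 0.163, so differences of the size of these medians could not be resolved gene by gene. Counted on library totals without TMM, the medians were -0.05, -0.07 and -0.03. With the log2 library total as a covariate they were -0.05, -0.06 and -0.03, and 4, 6 and 5 members had a p under 0.05 (share of all genes not given). Without both libraries that stood apart they were -0.09, -0.07 and -0.05, and without DMSO at 24 h replicate 1 -0.06, -0.03 and -0.05. The 170 min median also moved by more than 1.5 times without its own replicate 3 at 24 h (-0.04) or at 48 h (-0.05), and the 130 min median without DMSO at 72 h replicate 1 (-0.04).

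Rpl6, of the large subunit, had the smallest p among members for 90 and for 170 min. Its level ran from 76.5 to 122 CPM (median 101) with 170 min and from 106 to 160 CPM (median 125) with DMSO, a log2 difference of -0.31 (SE 0.0771, unadjusted p = 0.000269, adjusted p = 0.52). With 90 min it ran from 81.0 to 145 CPM (median 108), a difference of -0.24 (adjusted p = 0.627). At 24 h the values were 93.0, 103 and 81.0 CPM with 90 min, 109, 107 and 111 CPM with 130 min, 118, 94.2 and 76.5 CPM with 170 min, and 160, 125 and 122 CPM with DMSO. All 9 DAPT libraries thus lay below the 3 DMSO libraries at 24 h, whereas the 90 min libraries overlapped DMSO at 48 and 72 h and the 130 min libraries at 48 h. The 170 min libraries lay below DMSO at each duration, though at 48 and 72 h the nearest pair differed by less than 1 CPM. With the total as covariate the 170 min difference was -0.18, and without both libraries that stood apart it was -0.26.

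Rpl18 and Rpl38, both of the large subunit, came next. Rpl18 had 123 to 160 CPM (median 135) with 170 min and 146 to 201 CPM (median 168) with DMSO, a difference of -0.29 (SE 0.0728, adjusted p = 0.52), which was -0.15 with the total as covariate and -0.29 without both libraries that stood apart. Rpl38, loss of which causes skeletal patterning defects in mice, had 109 to 129 CPM (median 114) with 90 min and 114 to 176 CPM (median 135) with DMSO, a difference of -0.23 (adjusted p = 0.627). In both genes the ranges overlapped, and the highest DMSO value was that of replicate 1 at 24 h.

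For 130 min the members with the smallest p were low ones. Rpl7a, of the large subunit, had 7.04 to 32.0 CPM (median 18.5) with 130 min and 20.8 to 35.9 CPM (median 28.6) with DMSO, a difference of -0.54 (adjusted p = 0.762). Rps10, which lies near the mRNA entry and is ubiquitinated on collided ribosomes, had 0 to 11.8 CPM (median 7.04) with 130 min and 6.93 to 13.7 CPM (median 11.6) with DMSO, a difference of -0.82 (SE 0.343, adjusted p = 0.837). The ranges overlapped in both, and without both libraries that stood apart the differences were -0.59 and -0.85. Genes sharing Rps10 sequence over the whole transcript held 1200 counts, against 311 of its own. The positive differences with the smallest p were Rpl5 with 90 and 130 min (0.33 and 0.27), Rps13 with 90 min (0.26), Rps28 with 130 min (0.10), and Rpl9 and Rpsa with 170 min (0.23 and 0.22), each with an unadjusted p of more than 0.05. In the fit without both libraries that stood apart, Rpl5 and Rps28 differed by 0.29 and 0.10 with 130 min, and Rpl9 and Rpsa by 0.21 and 0.15 with 170 min. Rpl26 differed by -0.14 with 130 min and -0.22 with 170 min, and by 0.00 and -0.06 without both libraries that stood apart.

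At single durations the lower values lay at 24 h. In each of the 9 comparisons 0% of all tested genes and 0 members were called by edgeR, and the members under an unadjusted p of 0.05 numbered 40 in all 9 (42 by DESeq2, which called 0 members too). At 24 h they were 14 for 90 min, 4 for 130 min and 17 for 170 min, or 17.1, 4.88 and 20.7% of members beside 9.69, 4.7 and 12.4% of genes. At 48 h they were 0, 0 and 1, beside 1.53, 2.47 and 3.15% of genes, and at 72 h 1, 2 and 1, beside 0.995, 10.3 and 2.17%. Median member changes at 24 h were -0.20 for 90 min (63 of 82 below 0), -0.14 for 130 min (67) and -0.17 for 170 min (65). On library totals without TMM the 24 h medians were -0.10, -0.11 and -0.07, beside 0.12, 0.01 and 0.14 over all genes. At 48 h the medians with TMM were -0.07, -0.03 and -0.01, and at 72 h -0.02, -0.05 and -0.05. These small medians depended on single libraries: with each left out in turn they ran, at 48 h, from -0.11 to -0.04 for 90 min, from -0.07 to 0.03 for 130 min and from -0.11 to 0.06 for 170 min, and at 72 h from -0.06 to 0.02, from -0.09 to -0.02 and from -0.09 to -0.00. The sign turned at 48 h without DMSO replicate 2 for 130 and 170 min, without DMSO replicate 3 or 170 min replicate 2 or 3 for 170 min and without 130 min replicate 3 for 130 min, and at 72 h without DMSO replicate 1 for 90 min. The test of the difference between durations, the treatment by duration interaction, called 0 members (0% of genes), with 1 member under an unadjusted p of 0.05 by edgeR and 1 by DESeq2, beside 2.37% of genes, and 2 members without both libraries that stood apart. That member was Rpl3, with an adjusted p of 1 in edgeR.

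Rpl3 shows the pattern behind that value. With 170 min at 24 h it had 48.7, 59.1 and 59.1 CPM, and with DMSO at 24 h 27.7, 29.8 and 51.2 CPM. With 130 min it had 48.8, 63.5 and 66.9 CPM at 48 h and 26.4, 47.5 and 35.7 CPM at 72 h. With 170 min at 48 h it had 38.5, 47.3 and 25.9 CPM. Libraries under 30 CPM thus occurred with 170 min at 48 h, 130 min at 72 h and DMSO at 24 h, each beside a replicate above 45 CPM.

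The difference at 24 h depended on single libraries. Without DMSO at 24 h replicate 1, which had the lowest total, the 24 h medians were -0.07 for 90 min, -0.03 for 130 min and -0.08 for 170 min, with 2, 1 and 5 members under an unadjusted p of 0.05. With the log2 total as covariate they were -0.08, -0.06 and -0.06, with 1, 2 and 0. For 170 min the median was -0.07 without its replicate 3, which had the highest total and stood apart, and -0.27 without its replicate 1, with 7 and 35 members under 0.05. Without both libraries that stood apart the 24 h medians were -0.20, -0.13 and -0.08, with 16, 7 and 7 members under 0.05, and 0 members were called in any comparison. The share of all genes under 0.05 is not given for these fits. The counts of members alone cannot show a change particular to them. The part of library total in the 24 h differences was not tested beyond these values.

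**Figure D3:**
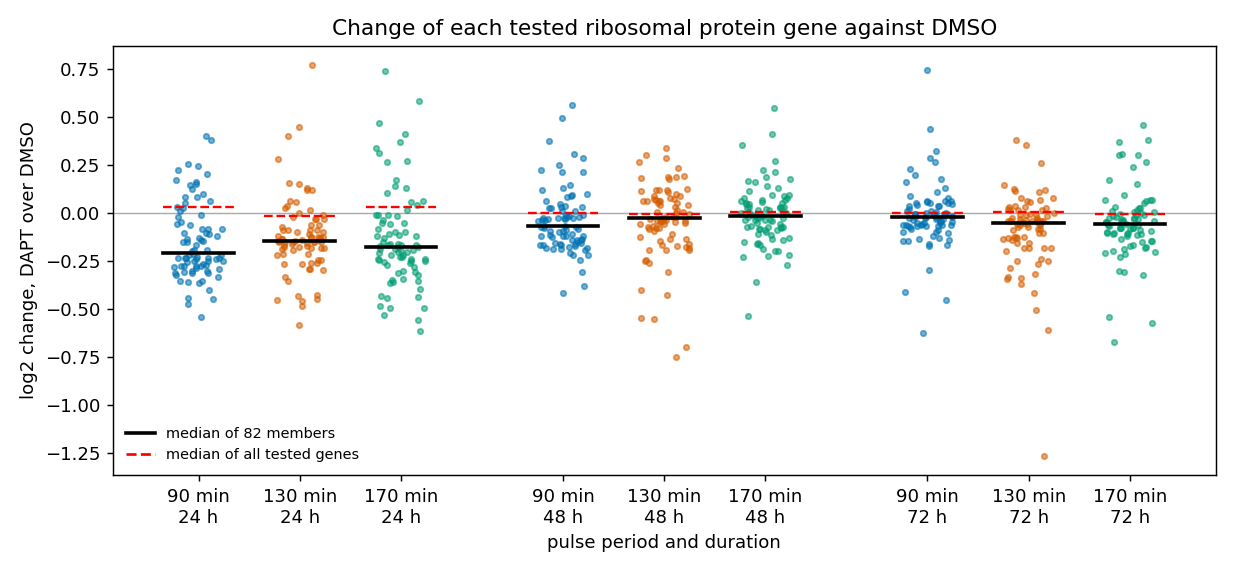
Log2 change of each of 82 tested members, DAPT over DMSO (y axis), for each pulse period at each duration (x axis); points are genes, solid lines the median of the members and dashed lines the median of all tested genes. At 24 h the medians of the members are -0.20, -0.14 and -0.17, and at 48 and 72 h they lie between -0.07 and -0.01.

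Periods compared with each other gave no called member either. For 90 against 130 min, 170 against 130 min and 170 against 90 min, 0 members and 0% of genes were called by edgeR and 0 members by DESeq2. Members under an unadjusted p of 0.05 numbered 8, 8 and 0 by edgeR and 7, 8 and 0 by DESeq2, beside 11.8, 12 and 1.3% of genes. The median member changes were -0.02, -0.02 and 0.00, too near 0 to keep their sign under other settings. With both libraries that stood apart left out, 6, 7 and 1 members had a p under 0.05. The smallest p was that of Rpl27, of the large subunit, with 16.2 to 31.1 CPM (median 23.5) with 90 min and 8.37 to 23.3 CPM (median 11.7) with 130 min, a difference of 0.74 (SE 0.203, adjusted p = 0.266), or 0.60 with the total as covariate and 0.74 without both libraries that stood apart. The ranges overlapped, and DMSO, at 8.79 to 23.3 CPM (median 18.8), lay between. Genes sharing Rpl27 sequence over the whole transcript held 3622 counts, against 653 of its own. Against 130 min, Rps16 had differences of 0.41 with 90 and 0.48 with 170 min, with no adjusted p under 0.05, and 0.43 and 0.44 without both libraries. Rpl36 differed by 0.33 between 170 and 130 min (adjusted p = 0.303), and by 0.25 without them. Rpl23, the highest member, had a median of 1122 CPM with 90 min and 1211 CPM with 130 min, a difference of -0.18, or -0.17 without both libraries.

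Durations differed little. For 48 against 24 h 0 members and 0% of genes were called, for 72 against 24 h 0 members and 0.157% of genes, and for 72 against 48 h 0 members and 0% of genes. DESeq2 called 0 members in each. Members under an unadjusted p of 0.05 numbered 3, 1 and 1 by edgeR and 3, 0 and 1 by DESeq2, beside 9.63, 14.8 and 12.6% of genes. The median member changes were -0.03, 0.02 and 0.05. Rpl6 had the smallest p for 72 against 24 h, with medians of 119 CPM at 72 h and 108 CPM at 24 h and a difference of 0.15 (adjusted p = 0.308). Rps27l, a paralog known as a p53 target, had 577 to 787 CPM (median 661) at 72 h and 545 to 655 CPM (median 606) at 48 h, a difference of 0.15 (adjusted p = 0.346). Rpl7, of the large subunit, had a difference of -0.16 at 48 against 24 h (adjusted p = 0.481). The groups overlapped in these 3 genes. These differences were 0.11, 0.15 and -0.18 without both libraries that stood apart, and 3, 1 and 2 members had a p under 0.05.

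Members were called only for their slope on the library total, on which abundant genes fell in general. Of the 82 tested members, 52 had a mean over 100 CPM. Among all genes 31.2% fell between 100 and 200 CPM and 70.7% above, so the share over all genes below is not matched for level. Fitted within the 12 groups, the slope of a gene on the log2 total was called in 33 of 82 members (40.2%) by edgeR, beside 15.9% of all 11462 tested genes, with 28 members falling and 5 rising as totals rose. DESeq2 called 27 falling and 3 rising, beside 1533 of all genes called. Counting on library totals without TMM moved the median slope of all genes by 0.13. On that scale 14 members fell and 8 rose, out of 22 called, beside 1364 of all genes called. The median member slope was -0.17 per unit of log2 total, beside 0.08 over all genes, and -0.04, beside 0.21, on library totals without TMM. It was -0.08 without replicate 1 of every group, where 2 members were called, and -0.12 without DMSO at 24 h replicate 1, where 22 were called. Without both libraries that stood apart it was -0.14, and 26 members were called, 21 falling and 5 rising, beside 12.8% of genes. The share of all genes called is not given for the fits without replicate 1 or without that DMSO library.

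Members that fell were abundant ones. Rpl13, a large-subunit protein, had the steepest fall, with a slope of -0.87 (SE 0.0953, adjusted p = 6.05e-07): its median was 134 CPM in the 12 lowest libraries by total, 118 CPM in the 12 middle ones and 101 CPM in the 12 highest. Rpl34 had a slope of -0.59 (adjusted p = 0.000203), with medians of 186, 144 and 136 CPM in the same order. Rpl4 had a slope of -0.40 (adjusted p = 0.000151), with medians of 977, 906 and 823 CPM. Rpl39 (-0.45), Rpl18 (-0.39), Rps27l (-0.34) and Rpl6 (-0.38) fell too, with adjusted p of 0.000257, 0.000284, 0.000306 and 0.00131 in edgeR. Rplp1 and Rplp2 of the stalk fell by 0.35 and 0.27 on the log2 scale, while Rplp0 had a slope of -0.16 (adjusted p = 0.171). The slopes were, without both libraries that stood apart, -0.84 for Rpl13, -0.58 for Rpl34 and -0.42 for Rpl4, and those of Rpl39, Rpl18, Rps27l, Rpl6, Rplp1 and Rplp2 lay between -0.46 and -0.27, with adjusted p of at most 0.0469. With a replicate block, Rpl13, Rpl34, Rpl4, Rpl39, Rpl18 and Rps27l had adjusted p of at most 0.0083. In the library with the highest total Rpl13 had 98.6 CPM, against 208 CPM in that with the lowest.

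Members that rose had means under 100 CPM. Rpsa had a slope of 0.79 (SE 0.160, adjusted p = 0.000802), with medians of 33.1, 38.6 and 46.0 CPM from low to high totals. Rpl36a had a slope of 0.87 (adjusted p = 0.0262) and medians of 17.2, 18.2 and 22.9 CPM, Rpl7a one of 0.76 (adjusted p = 0.0294) and medians of 22.1, 19.3 and 30.2 CPM, Rpl9 one of 0.51 (adjusted p = 0.0294) and medians of 39.9, 44.6 and 49.9 CPM, and Rps23, which lines the decoding centre, one of 0.61 (adjusted p = 0.0378) and medians of 28.2, 34.6 and 41.9 CPM. With the replicate number as a block, 4 of these 5 calls were lost, with adjusted p of 0.211 for Rpl36a, 0.413 for Rpl7a, 0.361 for Rpl9 and 0.254 for Rps23, beside 0.0179 for Rpsa. The 5 slopes were, without both libraries that stood apart, 0.86 for Rpsa, 0.98 for Rpl36a, 0.98 for Rpl7a, 0.54 for Rpl9 and 0.73 for Rps23, with adjusted p of at most 0.0484. The more abundant relatives of 3 of them had slopes below 0: -0.60 for Rpl9-ps6 (adjusted p = 0.000361), -0.06 for Rpl36a-ps2 (adjusted p = 0.792) and -0.29 for Rpsa-ps10 (adjusted p = 0.718). Rpsa-ps10 was low in both libraries that stood apart, and without them its slope was -0.33 (adjusted p = 0.00183), while those of Rpl9-ps6 and Rpl36a-ps2 were -0.62 and -0.10. Summed with the genes that share its 3′ sequence, Rpl9 had a slope of -0.31, the opposite sign, and Rpl36a one of 0.13. By the last 300 bases, 2 of the 5 that rose had more counts in sharing genes than of their own, against 3 of the 28 that fell and 12 of the other 49. By the whole transcript the numbers were 3, 2 and 20.

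**Figure D4:**
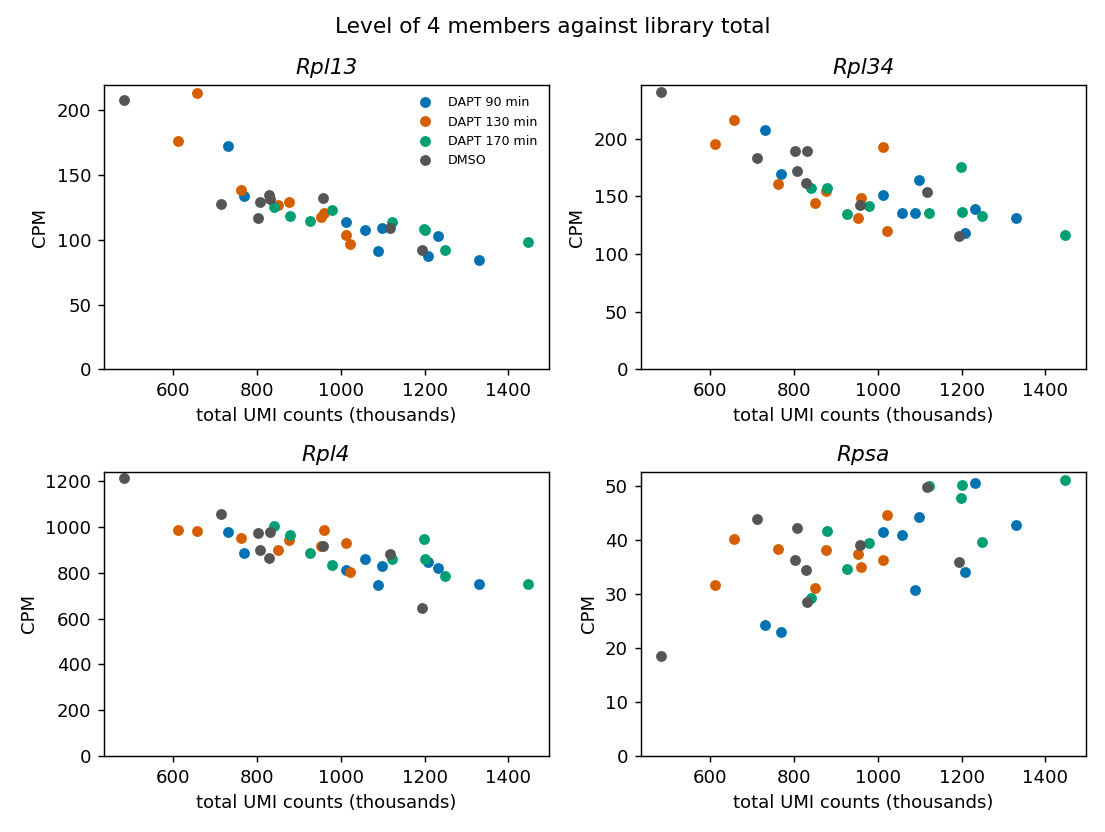
Level of Rpl13, Rpl34, Rpl4 and Rpsa (y axes, CPM) in each of 36 libraries against its total UMI count (x axes), coloured by DAPT pulse period or DMSO. The first 3 fall and Rpsa rises with the total. Rpsa had 18.5 CPM (8 counts) at the lowest total. At the highest, 170 min at 24 h replicate 3, which stood apart, it had 51.0 CPM.

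The sign of the slope followed the expression level in the members as in all genes. From the class of 100 to 200 CPM to that above, however, the share that fell moved in opposite directions. Under 25 CPM 2 of 13 members rose and 0 fell, and between 25 and 100 CPM 3 of 17 rose and 0 fell, beside 3.4 and 4.14% of genes rising in these classes. Between 100 and 200 CPM 13 of 17 members fell (76.5%), beside 31.2% of genes, and above 200 CPM 15 of 35 members fell (42.9%), beside 70.7% of genes. These shares were not compared by a test. Median slopes in these 2 classes were -0.38 and -0.23 for members, beside -0.20 and -0.32 for all genes.

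**Figure D5:**
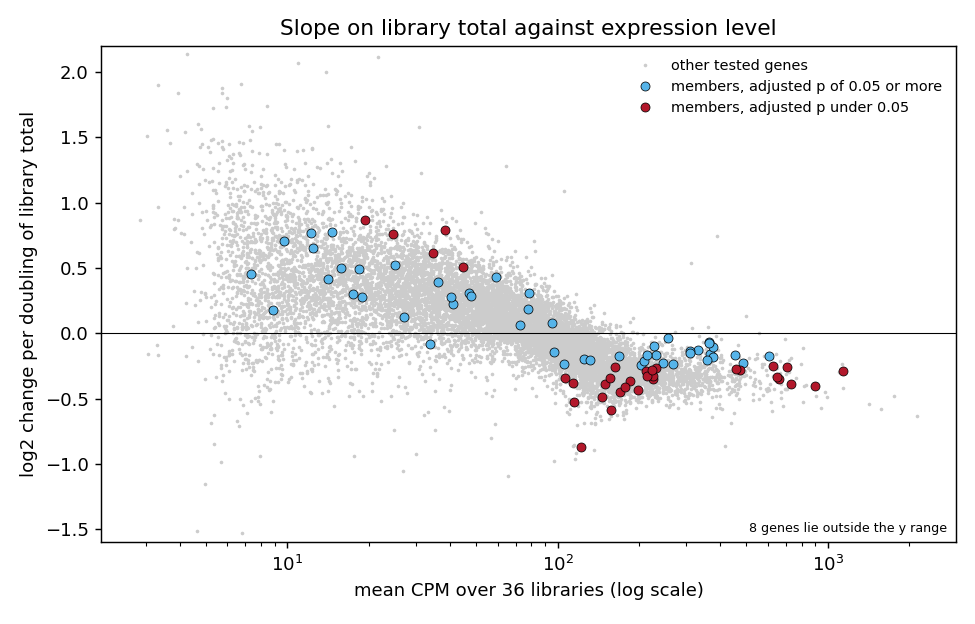
Slope on log2 library total (y axis, log2 change per unit of log2 total) against mean CPM over 36 libraries (x axis, log scale) for members (large points, dark where the adjusted p is under 0.05) and other tested genes (small points). Members over 100 CPM have slopes below 0 and most of those under 100 CPM above 0, the same signs as the median slopes of all genes at these levels.

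The sequence around the start of the mRNA is shown for every tested member named above whose promoter holds a TOP-like tract. In the 30 bases around the RefSeq start (15 before and 15 after, GRCm38.p6, sense strand), a C followed by at least 7 more C or T was found in 28 of 80 promoters of 68 members (35%), beside 9.26% of 32851 promoters of all genes. The shorter word CTTTCC, which can lie inside such a tract, was in 11 (13.8%), beside 1.42% of all. Capitals mark the tract.
Rpl4, chr9:64173372-64173401, plus strand: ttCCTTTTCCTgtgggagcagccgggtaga
Rpl7a, chr2:26910792-26910821, plus strand: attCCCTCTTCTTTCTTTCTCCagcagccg
Rpl18, chr7:45718056-45718085, plus strand: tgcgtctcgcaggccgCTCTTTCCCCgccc
Rpl22l1, chr3:28805493-28805522, plus strand: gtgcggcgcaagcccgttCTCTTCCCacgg
Rpl34, chr3:130730323-130730352, minus strand: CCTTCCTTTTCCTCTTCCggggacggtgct
Rpl34, chr3:130730384-130730413, minus strand: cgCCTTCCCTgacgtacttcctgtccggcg
Rpl38, chr11:114668565-114668594, plus strand: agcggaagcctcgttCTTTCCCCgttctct
Rpl39, chrX:37085208-37085237, minus strand: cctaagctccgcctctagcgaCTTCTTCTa
Rplp2, chr7:141447636-141447665, plus strand: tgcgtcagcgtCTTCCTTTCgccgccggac
Rps10, chr17:27635230-27635259, minus strand: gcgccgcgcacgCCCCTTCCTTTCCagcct
Rps24, chr14:24490663-24490692, plus strand: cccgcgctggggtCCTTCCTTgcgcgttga
Rps26, chr10:128626492-128626521, minus strand: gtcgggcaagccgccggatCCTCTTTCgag
Rps27, chr3:90213634-90213663, minus strand: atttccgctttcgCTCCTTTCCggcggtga
Rps27l, chr9:66946071-66946100, plus strand: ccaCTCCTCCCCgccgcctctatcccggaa
Rpl34 has 2 starts in the table. Of the members that fell with library total, 12 of the 22 with a promoter in the table held the tract, against 1 of 5 that rose, Rpl7a, and 12 of 35 of the others. Some tracts lie before the RefSeq start, as in Rpl4 and Rps27l, so a tract need not hold the first bases of the mRNA. A match is a description of these letters only, and the search covered the sense strand.

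The rest of the translation machinery was read from lists of genes beside the members. In the comparisons of periods and durations 0 genes of these lists were called. On the library total, where 13.2% of all genes fell and 2.67% rose (31.2% falling between 100 and 200 CPM and 70.7% above), 28 of 39 initiation factor genes fell, among them Eif3f (-0.66) and Eif3c (-0.65) of the complex that bridges mRNA and small subunit, and 9 of 16 elongation and other TOP genes, among them Btf3 (-0.52) and Naca (-0.41), which form the nascent-chain complex. Of 73 ribosome biogenesis genes 16 fell and 1 rose, with -0.49 for Tcof1 and -0.36 for the nucleolar protein Ncl. Of 16 genes for rRNA transcription 5 fell, Myc among them (-0.42), and of 24 mTORC1 pathway genes 6 fell and 1 rose, with -0.47 for Larp1. Of 16 chaperones and quality control genes 5 fell, with -0.32 for the importin Ipo5, and 2 rose, with 0.66 for Grwd1, whose yeast counterpart is a chaperone of Rpl3. Of 75 mitochondrial ribosomal protein genes 23 fell and 0 rose, and of 12 snoRNA host genes 3 fell. As shares, 71.8% of the initiation factor, 56.2% of the elongation, 21.9% of the biogenesis, 31.2% of the rRNA transcription, 25% of the mTORC1, 31.2% of the chaperone, 30.7% of the mitochondrial and 25% of the snoRNA host genes fell. Genes over 100 CPM, which fell more often in general, numbered 31 of the 39 initiation factor and 14 of the 16 elongation genes. With both libraries that stood apart left out, 23 initiation factor, 6 elongation, 16 biogenesis, 3 rRNA transcription, 6 mTORC1, 4 chaperone, 15 mitochondrial and 4 snoRNA host genes fell. Against DMSO 10, 2 and 15 of the 39 initiation factor genes had an unadjusted p under 0.05 for 90, 130 and 170 min, beside 7.92, 5.49 and 8.64% of all tested genes, with median changes of -0.12, -0.03 and -0.14. The 130 min count, 5.13% of the list, lay at the share of all genes. In the same order the shares were 18.8, 0 and 12.5% of elongation and 8.22, 8.22 and 13.7% of biogenesis genes. They were 12.5, 0 and 6.25% of rRNA transcription, 8.33, 0 and 20.8% of mTORC1 and 6.25, 0 and 12.5% of chaperone genes. Mitochondrial ribosomal protein genes had 20, 5.33 and 14.7%, and snoRNA host genes 0% each. These list counts were not repeated with the total as covariate or without both libraries that stood apart.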

How the data were processed

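The submitters' processing notes name STAR 2.7.8a and UMI-tools 1.1.1. The table that the authors deposited holds UMI counts as whole numbers, by gene symbol, with no sign of scaling. What genome build and annotation were used, how long the UMI was and how reads with several matches were counted is not given in the sources used here.

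All 36 columns were mapped to a sample by name, with 0 left over. The 11462 genes kept by filterByExpr (of 34197) were fitted with edgeR 4.0.16 in R 4.3.3 (TMM, glmQLFit robust, glmQLFTest), with 12 group coefficients (24 residual degrees of freedom) and p-values adjusted by Benjamini-Hochberg over all tested genes; CPM use TMM library sizes. The slope added the log2 total to the 12 group coefficients. Standard errors are the log2 change divided by the root of F. The biological coefficient of variation was 0.145. DESeq2 1.42.0 was the other tool. Scripts were tested on simulated data. Counting error limits low members: at the median total of 958749, a gene at 10 CPM has about 10 counts.

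The members and gene lists were chosen with earlier results of these data known. Members are named by a rule: a panel with known roles, those with the smallest p per comparison and direction (up to 6 where some passed, up to 2 where none did), the 5 highest, the 5 lowest, the 5 most and the 3 least variable. Others (Rps15, Rpl15, Rpl21, Rpl37, further members given for their slope or their lack of relatives, and the relatives themselves) were named after their values were seen. Some members the rule would name are not reported here. Shared sequence was found with 50-base words in GENCODE transcripts (GRCm38), with at least 1 word for a pseudogene and 50 for another gene in the last 300 bases. Sequences are from these transcripts and from RefSeq promoters (GRCm38.p6), which covered 68 members; none is shown for genes with no entry.

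Same-numbered replicates correlated above 0.1 in their deviations from group means in all pairs of 130 and 170 min, and of 90 min and DMSO at 24 and 48 h, or 5 of 18 sets of pairs; the labels do not say that the numbers mark a shared culture. No 2 replicates agreed within counting noise (lowest chi-square per degree of freedom 1.26). Alternatives were other scalings, no filter, DESeq2, the total as covariate, thinning, a replicate block, leaving out libraries, and summing relatives.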

Additional observations from a re-analysis of the deposited data

How the results depend on the processing

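In the comparisons of periods and durations 0 members were called under every alternative that was run: DESeq2, other scalings, no filter, the total as covariate, thinning to the lowest total, each library or replicate number left out, both libraries that stood apart left out, and the replicate block. The numbers paired 130 with 170 min samples at each duration, and there the block called 0 members too. The count of members with a slope on library total was 33, and 16 with no filter, 19 with the replicate block, 2 to 16 without a replicate number, and 22 to 35 without a single library (22 without 170 min at 24 h replicate 1 or without DMSO at 24 h replicate 1). The cause was not tested. The share of all genes called is not given for these alternative fits. The counts alone cannot show a change particular to the members. The share of counts in the median library was 1.77%, and 1.62% without Rps3a2, Rps3a3, Rps19bp1 and members with a paralog or retrogene name. It was 2.19% with 3′ relatives and 2.47% with relatives over the whole transcript added. Signs turned for Rpsa with 170 min against DMSO with the total as covariate (-0.0551), for Rpl9 on library total summed with its relatives (-0.31) and for Rps13 at 72 against 48 h without replicate 3 (-0.343 to 0.0461 over the 3 numbers left out). The slopes of Rpl36a, Rpl7a, Rpl9 and Rps23 lost their call under 10 or more alternatives, the replicate block among them (adjusted p = 0.211, 0.413, 0.361 and 0.254), and that of Rpsa under 2. Median changes near 0 turned sign too: with a replicate number left out, the 48 h medians ran from -0.06 to 0.03 for 130 min and from -0.14 to 0.07 for 170 min against DMSO, the 72 h median of 170 min from -0.11 to 0.02, and 48 against 24 h from -0.07 to 0.01; on library totals alone, 90 and 170 against 130 min were 0.03 each. The alternative for barcode saturation was not run, since the UMI length is unknown; the highest count of any gene was 2775.

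Depth limits the members below about 25 CPM, whose counts were low. Dose moved with period, except between 130 and 170 min if 2 µM was used for 170 min. Time since passage moved with duration. Counts of a member and of a relative with the same sequence cannot be told apart.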

Other observations

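Replicate 1 of the 130 min period had 3, 2 and 1 counts of the Y-linked genes at 24, 48 and 72 h and at most 1 count of Xist, whereas the other libraries without high Xist had 7 to 542 counts of the Y-linked genes.

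Of 3550 genes with a mean of at least 100 CPM, 8 lay below the lowest other library by a factor of more than 2 in both libraries that stood apart (Gm14094, Gm8420, Mptx1, Myof, Retnlb, Rpl26, Rpsa-ps10 and Sox21), and 0 lay above. Gm8420, which shares sequence with Rpl15, had 10.1 CPM in the 130 min and 9.39 CPM in the 170 min library, against 178 to 310 CPM in the other 34. Rpl15 itself, of the large subunit, had 183 and 201 CPM there, against 201 to 303 CPM.

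Rpl21, of the large subunit, had 2710 counts over all libraries, against 26721 in the genes that share its sequence, of which Gm10240 held 10808. Rpl37 had 12571 counts, against 13013 for the retrogene Rpl37rt.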
